A study of Mus musculus with 12 samples.

Results

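The 12 libraries of this study carry sample identifiers of 2 kinds, and the comparison described here is between them. Series 1 is the 6 libraries with identifiers Sample9523 to Sample9528, and series 2 is the 6 with identifiers SampleA690 to SampleA695, so that all 12 libraries of the study enter. The RNA is that of cultured white adipocytes. They were differentiated from the stromal vascular fraction of epididymal fat, which is what remains once fat cells are removed and which contains precursors, vessel cells and immune cells. The donors of both series were wild-type male C57BL/6 mice, 8 weeks old and fed chow. All cultures were induced with IBMX (250 µM), dexamethasone (1 µM), insulin (850 nM) and rosiglitazone (1 µM) and then kept in the last 2 at the same doses. On day 4 they were reverse transfected with a negative control, a mimic of let-7d-5p or a mimic of let-7e-5p, and they were harvested on day 7. Each series holds 2 control, 2 let-7d and 2 let-7e libraries, replicates 1 and 2 of each treatment in series 1 and replicates 3 and 4 in series 2. The labels give no cause for the 2 kinds of identifier: they name no date, culture, mouse or sequencing run, so each series may be 1 culture. A p-value here is read against how far libraries of a series lie from each other, and that distance may be purely technical.

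The mimics are double-stranded copies of microRNAs, short RNAs that lead Argonaute proteins to messages pairing with bases 2 to 8, the seed. Their mature sequences are shown because both series received the same pair, with the seed in capitals, from RefSeq (GRCm38.p6, at chr13:48536078-48536099, minus strand, and chr17:17830366-17830387, plus strand).
let-7d-5p: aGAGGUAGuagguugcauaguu
let-7e-5p: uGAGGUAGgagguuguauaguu
Both share the seed. Treatment was a term of the fit, so the values below are differences between the series at equal treatment.

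White fat cells arise when precursors of the fibroblast kind leave growth and switch on a cascade of transcription factors. Cebpb and Cebpd act first, and Pparg and Cebpa then hold the mature state and turn on the genes that take up, make, store and release fat. A maturing culture also builds mitochondria and the insulin-responsive glucose transporter, and it keeps some cells that never differentiate. Rosiglitazone, which binds the Pparg protein, adds genes of heat-producing fat.

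Library totals ran from 15071299 to 25610151 counts in series 1 and from 23744175 to 33396316 in series 2, and 15703 to 15742 of the 15754 genes had a count in any one library. On the first principal component, with 81.9% of the variance, the series lay apart. Values are CPM, counts set to a common library size after scaling by TMM, a method that centres most genes. Differences are log2 fold changes of series 2 over series 1 with their standard error (SE), from edgeR's quasi-likelihood test on all 12 libraries, and genes with an adjusted p under 0.05 were called.

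The series differed in most genes. Of 15754 genes, 6565 (41.7%) were called higher in series 2 and 6299 (40.0%) lower, and the median log2 fold change over all genes was 0.03. At least 2-fold differences were called upward in 1786 genes (11.3%) and downward in 2470 (15.7%). In 4957 genes (31.5%) all 6 libraries of series 2 lay above all 6 of series 1, and in 4817 (30.6%) all lay below, so that 62.0% of genes did not overlap. These shares are the background for every count of list members below.

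The 12 largest falls ran from Fasn to Siglec1. Fasn, the fatty acid synthase (chromosome 11, 120805846 to 120824547, minus strand, GRCm38), ran from 3041 to 4405 CPM in series 1, with a median of 3364, and from 88.8 to 176 CPM in series 2, with a median of 121. No library of either series came near the other series, and the log2 fold change was -4.78 ± 0.089 (SE, edgeR adjusted p = 5.7e-16). Ucp1, the uncoupling protein of heat-producing fat, had 5.97 to 11.6 CPM in series 1 (median 9.01) and 0.113 to 0.368 CPM in series 2 (median 0.118), which is 3 to 11 counts per library. Its log2 fold change was -5.44 ± 0.18. Siglec1, a sialic acid receptor of macrophages, went from 6.49 to 15.2 CPM (median 10.3) to 0.0756 to 0.263 CPM (median 0.203), a log2 fold change of -5.81 ± 0.21 and the largest fall of any gene the naming rule admitted. Sorl1, a sorting receptor found in fat cells, had 63.6 to 98.0 CPM in series 1 (median 89.2) against 1.44 to 2.74 in series 2 (median 2.04). The other leading falls were C5ar1, the complement C5a receptor (-5.33), Rims4 (-5.06), the proton channel Otop1 (-5.04), the mitochondrial carrier Slc25a34 (-4.95), the muscle-type carnitine palmitoyltransferase Cpt1b (-4.92), Reep6 (-4.82), Odf3l1 (-4.81) and the kinase Aatk (-4.79).

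Among the 12 largest rises the fold change was highest for Folh1. Folh1, a folate and glutamate peptidase of the cell surface (chromosome 7, 86718977 to 86775943, minus strand), stood at 2.50 to 4.58 CPM in series 1 (median 2.88) and at 81.7 to 118 CPM in series 2 (median 101). The series did not overlap, and the log2 fold change was 4.94 ± 0.10 (SE, edgeR adjusted p = 6.21e-16). Crabp2, a carrier of retinoic acid, went from 0.556 to 1.44 CPM (median 1.06) to 14.1 to 30.9 CPM (median 24.8). Apod, a lipid carrier of fibroblasts, went from 3.55 to 6.35 CPM (median 5.23) to 66.1 to 110 CPM (median 93.0). Both were higher in every library of series 2. Next came the short noncoding RNA Bc1 (4.57), the interferon-inducible GTPases Tgtp1 (4.48) and Tgtp2 (3.28), the growth factor Ptn (4.29), the chemokine Ccl5 (3.93), C1qtnf3 (3.47), the matrix protein Ccn3 (3.37), the neuropeptide Y receptor Npy1r (3.12) and the keratin Krt18 (3.11). Tgtp1 and Tgtp2 are near-identical copies, and how the reads they share were counted is not given in the sources used here.

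**Figure D1:**
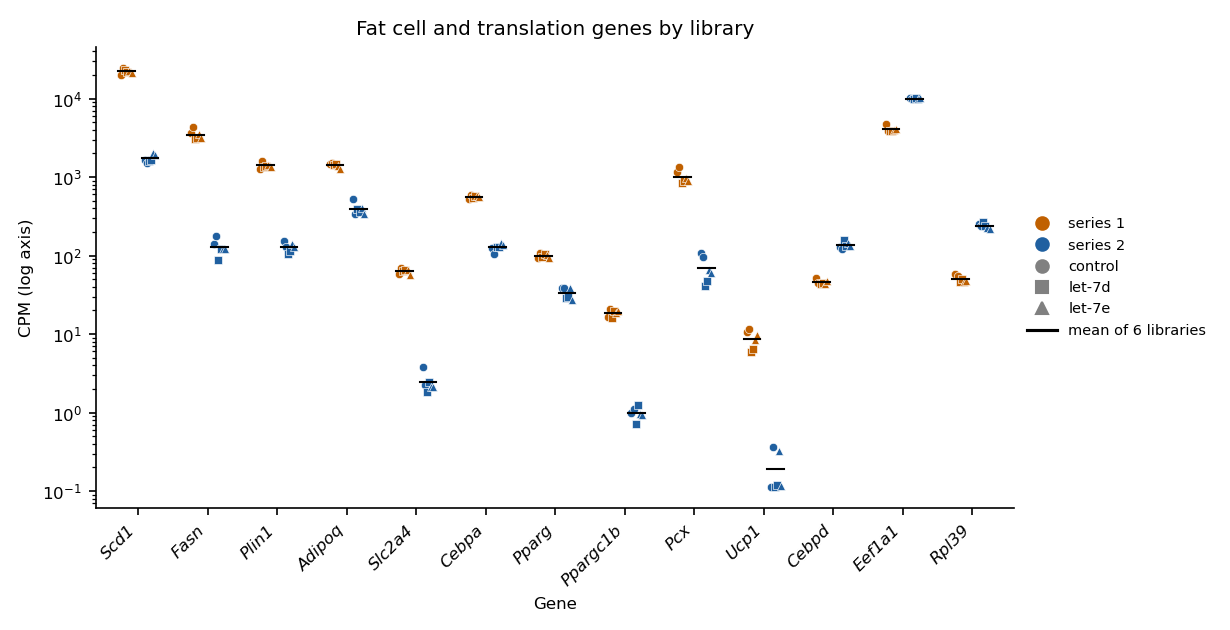
CPM of 13 genes in every library, on a log axis; orange points are series 1, blue points series 2, the shape is the treatment and the black bar the mean of 6 libraries. The series do not overlap in any of the 13 genes, with Scd1 at 20175 to 24564 CPM against 1510 to 2009, and only Cebpd, Eef1a1 and Rpl39 are higher in series 2.

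The mature fat cell genes were lower in series 2. Of 35 listed genes 32 were measured, 31 fell, 30 of them at least 2-fold, and none rose. Their median log2 fold change was -2.83, against 0.03 over all genes. In 31 of them all 6 libraries of series 2 lay below series 1. Adipoq, which encodes the hormone adiponectin, had 1276 to 1497 CPM in series 1 (median 1446) and 336 to 521 CPM in series 2 (median 374), a log2 fold change of -1.86 ± 0.085 (SE, edgeR adjusted p = 2.97e-12). Plin1, which coats the lipid droplet, went from 1278 to 1608 CPM (median 1378) to 104 to 155 CPM (median 129), or -3.45 ± 0.076. Slc2a4, the insulin-responsive glucose transporter, went from 56.4 to 69.8 CPM (median 65.2) to 1.85 to 3.80 CPM (median 2.19), or -4.70 ± 0.11. The fatty acid carrier Fabp4 fell by 1.56 and the fatty acid receptor Cd36 fell by 2.03 on the log2 scale. Cidea, a lipid droplet protein, had 36 to 71 counts per library in series 1 and 0 to 2 in series 2. The gene not called was Sncg, at -0.18. It was called at -0.25 without control replicate 3 and at -0.34 with offsets for message length and GC content. The label of white adipocytes holds in series 2 as far as Adipoq, Plin1, Fabp4 and Cd36 were all counted there in every library. In such mixed cultures, fewer fat cells and less of these messages per fat cell cannot be told apart.

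Summed over the list, mature fat cell genes made up 34275 to 37418 CPM in series 1 (median 36036) and 7055 to 9889 CPM in series 2 (median 8112). Of 18 adipokines measured, the hormones and other secreted proteins of fat, 11 fell and 5 rose. Retn, for resistin, fell by 3.60, the retinol carrier Rbp4 fell by 3.85 and angiotensinogen, Agt, fell by 2.43. Il6 rose by 1.55. Haptoglobin, Hp, a secreted binder of haemoglobin, had 2837 to 3334 CPM in series 1 (median 3078) and 670 to 1366 CPM in series 2 (median 979). It was lower in every library of series 2.

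Transcription factors of fat cell differentiation moved both ways. Of 24 measured, 18 fell and 5 rose, with a median of -0.74. Cebpa went from 533 to 585 CPM (median 560) to 103 to 144 CPM (median 128), a log2 fold change of -2.14 ± 0.057 (SE, edgeR adjusted p = 6.16e-15). Pparg went from 93.8 to 108 CPM (median 99.4) to 27.5 to 39.1 CPM (median 34.1), or -1.57 ± 0.078. Both late factors were lower in all 6 libraries of series 2. Cebpd, an early factor, went the other way, from 42.9 to 51.3 CPM (median 44.6) to 122 to 158 CPM (median 133), or 1.58 ± 0.064. Cebpb, the other early factor, fell by 0.64. Mlxipl, the glucose-sensing ChREBP, fell by 3.83, the sterol and fatty acid factor Srebf1 fell by 2.57, Zfp423, a factor of committed precursors, fell by 2.43, and the oxysterol receptor gene Nr1h3 fell by 1.86. Ppargc1b, a coactivator of mitochondrial genes, ran from 15.9 to 21.1 CPM in series 1 (median 19.004) and from 0.718 to 1.24 CPM in series 2 (median 0.965). The Kruppel-like factors Klf4 (0.46), Klf5 (0.40) and Klf15 (0.60) and the precursor factor Gata2 (0.28) rose with Cebpd.

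Fat synthesis was lower throughout its chain. All 20 genes of fatty acid synthesis fell, 14 of them at least 2-fold, with a median of -2.46. Scd1, which makes monounsaturated fatty acids (chromosome 19, 44394455 to 44407879, minus strand), took 1.93% to 2.34% of all counts in series 1 and was the gene with the most counts in each of its libraries. It had 20175 to 24564 CPM in series 1 (median 22089) and 1510 to 2009 CPM in series 2 (median 1641), a log2 fold change of -3.69 ± 0.077 (SE, edgeR adjusted p = 6.63e-16). The acetyl-CoA carboxylases Acaca (-3.38) and Acacb (-4.47), which commit carbon to fat, fell. Acss2, which makes acetyl-CoA from acetate, fell by 3.89 and Acly, which makes it from citrate, fell by 2.30. The smallest fall was that of Elovl5, an elongase of polyunsaturated fatty acids, at -0.10, a call that ended at -0.10 to -0.07 without control replicate 2, let-7d replicate 2, 3 or 4, or let-7e replicate 1 or 3.

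Storage and release of triglyceride were lower too. Of 15 esterification genes 14 fell, 10 at least 2-fold, with a median of -2.35, and the exception was Mogat2 at 0.81, with about 1 CPM in series 2. Agpat2, which adds the second fatty acid to glycerol, went from 1080 to 1320 CPM (median 1169) to 82.5 to 141 CPM (median 108). The series did not overlap, and the difference was -3.45 ± 0.069 (SE, edgeR adjusted p = 5.7e-16). Lpin1, the phosphatidate phosphatase, fell by 3.80, the acyltransferase Gpat3 fell by 3.31 and the acyltransferase Dgat1 fell by 2.35. Of 22 genes of lipolysis and the lipid droplet 20 fell and 2 rose, with a median of -2.84. Pnpla2, the lipase that starts lipolysis, went from 1660 to 1984 CPM (median 1826) to 117 to 173 CPM (median 152), or -3.63 ± 0.076. The beta-3 adrenergic receptor Adrb3, which starts the lipolytic signal, fell by 3.27, the hormone-sensitive lipase Lipe fell by 3.28, Plin4 fell by 3.26 and Fitm2, which shapes droplets, fell by 2.77. Plin3 (0.39) and Hilpda (0.64), droplet proteins of many cell types, rose. With offsets for message length and GC content Hilpda stood at 0.21 and was not called.

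Uptake genes fell in 11 of 15 cases and rose in 4, or in 1 with length and GC offsets. The fatty acid transporter Slc27a1 fell by 3.74, Slc27a4 fell by 1.39, Fabp5 fell by 1.97 and lipoprotein lipase, Lpl, fell by 1.91. Gpihbp1, which carries that lipase on capillaries, rose by 1.88. Cholesterol synthesis, with its uptake receptor, fell in 20 of 24 genes and rose in 2, with a median of -0.79. Lss, the lanosterol synthase, went from 118 to 156 CPM (median 132) to 22.1 to 32.7 CPM (median 27.1), or -2.28 ± 0.054 (SE). Dhcr7, which makes the final sterol, fell by 2.93, Acat2 fell by 1.96 and Pmvk fell by 1.79. Sqle fell by 0.44, while Msmo1 rose by 0.63.

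**Figure D2:**
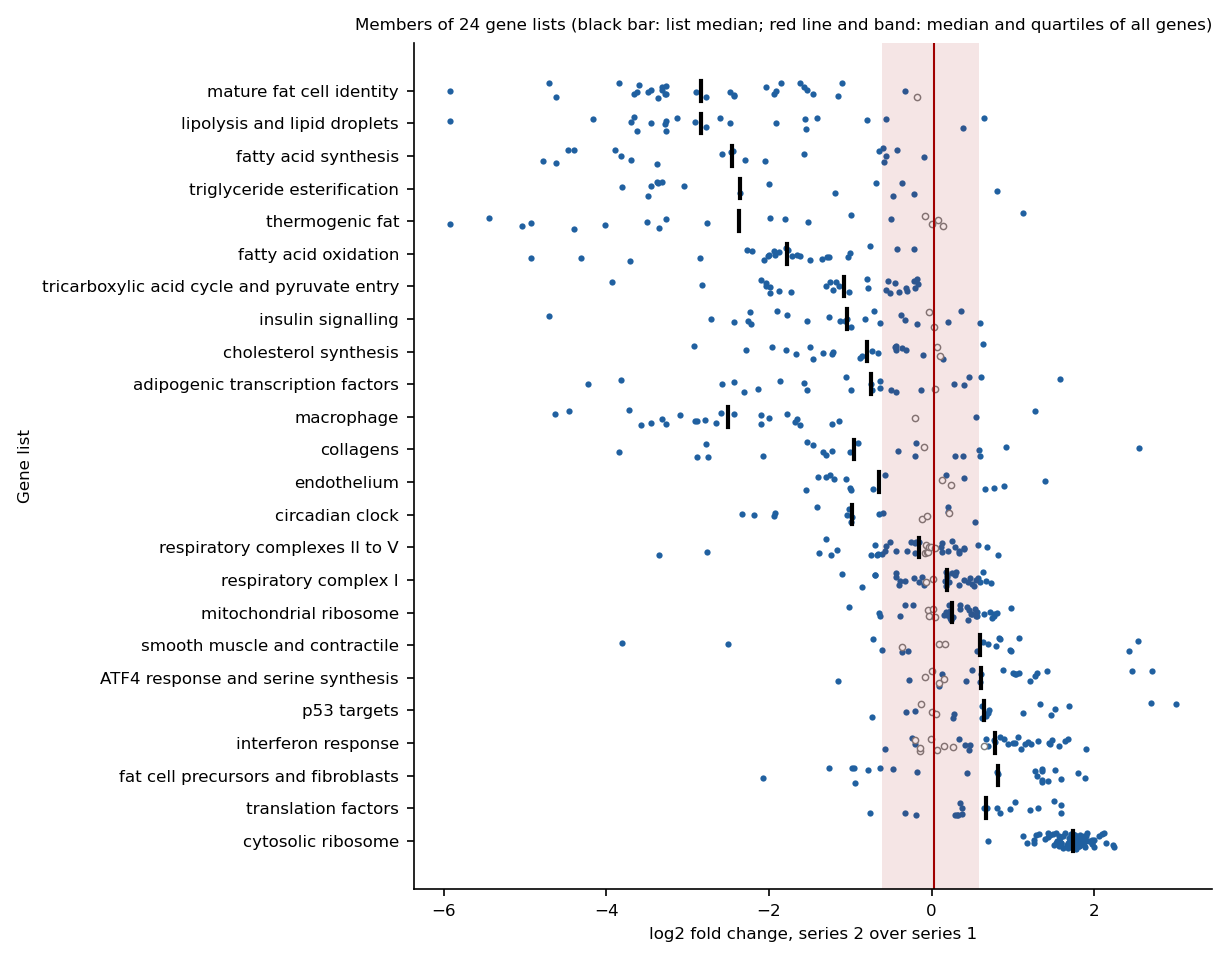
Log2 fold change of series 2 over series 1 for each measured member of 24 gene lists; filled points were called by edgeR, open points were not, black bars are list medians and the red line and band are the median and quartiles of all genes (0.03, from -0.61 to 0.58). The lists of mature fat cell identity, lipolysis, fatty acid synthesis, esterification and thermogenic fat have medians of -2.84 to -2.35, adipogenic transcription factors -0.74, and cytosolic ribosomal proteins at 1.74 with no member below 0.69.

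Genes of heat-producing fat were mostly lower in series 2. Of 20 measured 15 fell, 13 at least 2-fold, and 1 rose, with a median of -2.37. Beside Ucp1 and Otop1 these were the potassium channel Kcnk3 (-4.02), the coactivator Ppargc1a (-3.50), the respiratory subunit Cox7a1 (-3.36) and glycerol kinase, Gk (-1.80). Fabp3, a fatty acid carrier of heart and brown fat, rose by 1.13. Ckb, the creatine kinase, stood at 0.00 and Dio2, which activates thyroid hormone, at 0.14, and neither was called. With length and GC offsets Ckb was called higher, at 0.33.

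Genes of mitochondrial fuel burning fell, and the balance of rises and falls among respiratory chain subunits turned on the offsets for message length and GC content. All 28 genes of pyruvate entry and the tricarboxylic acid cycle fell, 15 at least 2-fold, with a median of -1.08. Pcx, pyruvate carboxylase, which refills the cycle, went from 849 to 1362 CPM (median 930) to 40.8 to 107 CPM (median 63.2), a log2 fold change of -3.93 ± 0.097 (SE, edgeR adjusted p = 3.06e-15). Citrate synthase, Cs, went from 895 to 1065 CPM (median 937) to 190 to 253 CPM (median 218), or -2.10 ± 0.054. Neither gene overlapped between the series. Dlat, of the pyruvate dehydrogenase complex, fell by 2.03. The 26 genes of fatty acid oxidation all fell, 23 at least 2-fold, with a median of -1.78. Hadh fell by 2.21, Cpt2 fell by 2.27 and the peroxisomal thiolase Acaa1b fell by 3.71. Cpt1a, the carnitine palmitoyltransferase of liver, fell by 0.43. Breakdown of branched-chain amino acids fell in 20 of 24 genes, with Bckdhb at -2.16, Aldh6a1 at -1.66, Bcat2 at -1.56 and Bckdha at -1.33. It rose in 3, the first-step enzyme Bcat1 (0.78) among them.

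Of 36 subunits of respiratory complex I, which takes electrons from NADH, 21 rose and 13 fell, with a median of 0.18. With offsets for message length and GC content 11 rose and 22 fell, with a median of -0.32. Ndufv1 fell by 1.10, Ndufs1 fell by 0.86 and Ndufa10 fell by 0.70, and Ndufa13 rose by 0.73. Of 41 genes of complexes II to V 13 rose and 21 fell (median -0.16), or 5 and 33 (median -0.51) with these offsets, with Cyc1 at -1.39, Sdha at -1.29 and Uqcrfs1 at -1.16. The mitochondrial genome had 7 messages measured: 4 fell and none rose. Its mt-Nd2 went from 2304 to 2862 CPM (median 2608) to 1234 to 1554 CPM (median 1318), or -0.95 ± 0.064 (SE). The other calls were mt-Nd1 (-0.52), mt-Nd4 (-0.37) and mt-Nd5 (-0.26), while mt-Co1 (-0.06), mt-Cytb (-0.07) and mt-Nd6 (-0.03) were not called. With the offsets these 3 were called too, at -0.94, -1.06 and -1.28, so that 7 of 7 fell. Proteins of the mitochondrial ribosome rose in 28 of 38 genes and fell in 6 (median 0.25), or in 21 and 11 (median 0.13) with the offsets, with Mrpl13 at 0.98, Mrpl27 at 0.77 and Mrps6 at -1.02. The uncoupling protein gene Ucp2 fell by 3.43 and the fusion gene Mfn2 fell by 1.58, while the fission gene Fis1 rose by 0.99 and Tfam, which packs mitochondrial DNA, by 0.67.

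Insulin signalling was lower. Of 25 genes measured 20 fell, 13 at least 2-fold, and 3 rose, with a median of -1.04 that became -0.59 with length and GC offsets. Irs2, a docking protein of the insulin receptor, went from 79.4 to 95.9 CPM (median 84.5) to 16.5 to 19.9 CPM (median 18.7), a log2 fold change of -2.22 ± 0.045 (SE, edgeR adjusted p = 6.08e-16). Pik3cb, a kinase below it, fell by 2.24, Tbc1d4, which releases Slc2a4 to the surface, fell by 2.72 and the receptor itself, Insr, fell by 2.43. Of the kinases that relay the signal, Akt1 rose by 0.35.

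Sugar genes were mixed. Of 20 glycolysis genes 7 rose and 10 fell (median -0.12, or 0.12 with length and GC offsets). Pfkfb3, which makes an activator of glycolysis, fell by 2.56, Hk2 fell by 0.90, Ldhb fell by 0.72 and the lactate transporter Slc16a1 fell by 0.69, while Pgk1 (1.04), Eno1 (0.80) and Gapdh (0.69) rose. Genes that supply NADPH for fat synthesis fell in 9 of 12 cases, with Me1 at -2.44, G6pdx at -1.52, Pgd at -1.25 and Taldo1 at -1.06. Nnt, another NADPH source, lost part of its coding sequence in some C57BL/6 stocks. It had 0.661 to 1.13 CPM in series 1 (median 0.791) and 0.265 to 0.773 CPM in series 2 (median 0.547), so both series were low and overlapped. Its log2 fold change of -0.54 ± 0.24 (SE, edgeR adjusted p = 0.0479) was no longer called when any library other than let-7e replicates 1 and 4 was left out, at -0.58 to -0.37. Clock genes fell in 11 of 17 cases and rose in 3 (median -0.98, or -0.61 with length and GC offsets). Per3 went from 25.4 to 44.6 CPM (median 37.6) to 7.27 to 8.78 CPM (median 7.66), Per1 (-1.94) and Per2 (-1.92) fell, and Arntl, which acts opposite to them in the daily cycle, rose by 0.54. The labels give no hour of harvest.

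Genes of the cytosolic ribosome, which makes the cell's proteins, rose together. All 77 measured genes of cytosolic ribosomal proteins were higher, 76 at least 2-fold, with a median of 1.74 and a range from 0.69 (Rplp2) to 2.24 (Rpl39). In all 77 the 6 libraries of series 2 lay above the 6 of series 1. Rpl39 went from 45.8 to 58.8 CPM (median 49.3) to 215 to 271 CPM (median 237), a log2 fold change of 2.24 ± 0.055 (SE, edgeR adjusted p = 2.81e-15). Rpl35a rose by 2.05 and Rps28 by 1.98. Summed, these genes held 16092 to 20000 CPM in series 1 (median 16483) and 50354 to 55861 CPM in series 2 (median 53467). Of 20 translation factors 17 rose and 3 fell. Eef1a1, which brings amino acids to the ribosome, had the most counts in each library of series 2 with 0.978% to 1.05% of them. It went from 3888 to 4697 CPM (median 3922) to 9738 to 10318 CPM (median 9994), or 1.30 ± 0.053. Eif3e went from 118 to 135 CPM (median 126) to 335 to 382 CPM (median 358), and Eef1b2 (1.59), Tpt1 (1.59) and Eif3h (1.21) rose with it. The exceptions were Eif4g1 (-0.76), the scaffold of cap binding, Pabpc1 (-0.33), the poly(A) binder, and Eif3b (-0.20, or 0.04 and not called with the offsets for length and GC content described next). Ribosomal protein genes have many processed copies in the genome, and how reads that map to several places were counted is not given in the sources used here.

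The difference also followed the length and base composition of messages. In the 1577 genes of the shortest decile by exon length (56 to 1349 bases) the median log2 fold change was 0.52, or 0.50 without ribosomal protein genes, and in the 1575 genes of the longest decile (9541 to 123179 bases) it was -0.34. By GC content of each gene's longest annotated transcript it ran from 0.44 in the lowest decile (28.3% to 41.2%) to -0.34 in the highest (57.8% to 78.3%). The annotation classes differed as well. The 471 processed pseudogenes had a median of 0.64, the 38 sense intronic transcripts -1.03 and the 314 unspliced transcripts of class TEC -0.88. The 358 long intergenic noncoding RNAs had a median of 0.34, with 152 called higher and 91 lower. The long nuclear RNAs Neat1 and Malat1 were lower. Neat1 stood at 437 to 648 CPM (median 530) in series 1 and 160 to 181 CPM (median 171) in series 2, and Malat1 at -1.09. The histone messages Hist1h2bc (1.65) and Hist1h1c (1.03) rose. With offsets for length and GC content the medians were 1.47 for the ribosomal proteins, of which all 77 were still called higher, -2.83 for mature fat cell genes and -1.92 for fatty acid oxidation. For the 7 mitochondrial messages the median moved from -0.26 to -1.28. The part of library composition or RNA state in the other results was not tested beyond these offsets.

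**Figure D3:**
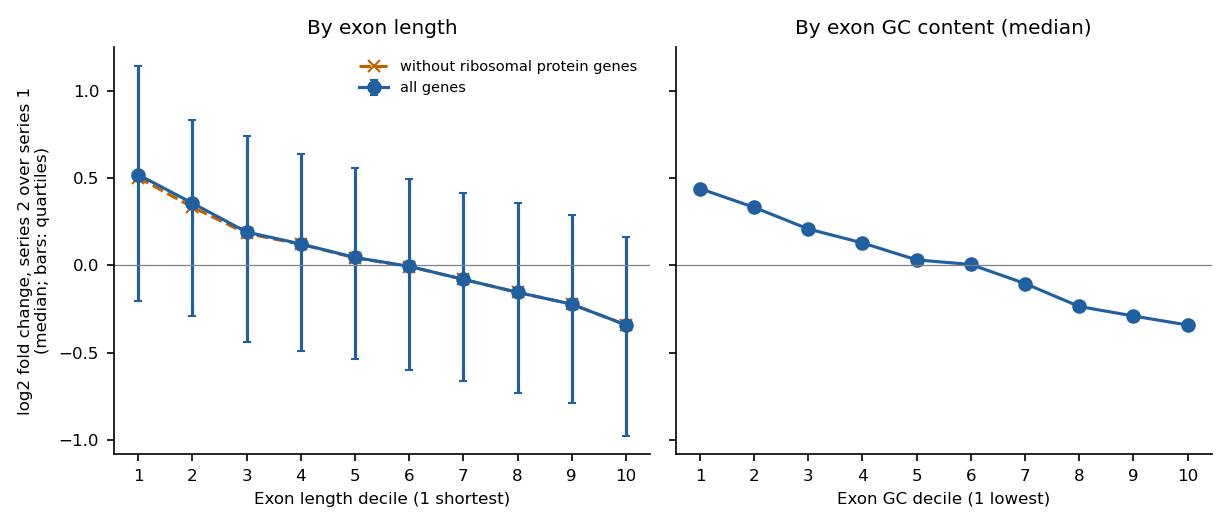
Median log2 fold change of series 2 over series 1 in deciles of genes by exon length (left, bars from the first to the third quartile, with and without ribosomal protein genes) and by GC content (right). GC content, labelled exon GC in the plot, is that of each gene's longest annotated transcript. The medians go from 0.52 to -0.34 with length and from 0.44 to -0.34 with GC content.

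Among other cells of the culture, macrophage markers fell, and more precursor markers rose than fell. Of 26 macrophage genes measured 23 fell, each at least 2-fold, and 2 rose, with a median of -2.51. Itgam, the integrin CD11b, had 4.72 to 7.82 CPM in series 1 (median 5.98) and 0 to 0.718 CPM in series 2 (median 0.154), a log2 fold change of -4.63 ± 0.35 (SE, edgeR adjusted p = 2.08e-09). It had no count in 1 library of series 2. Itgax, the integrin CD11c, was listed with dendritic cell genes. It had no count in 3 libraries of series 2, with 100 to 234 counts per library in series 1. Of 3 measured genes of that list Itgax fell by 7.14, Clec9a rose by 0.75 and Zbtb46 was not called at 0.04. Cd68, a lysosomal protein of macrophages, went from 28.4 to 42.3 CPM (median 36.7) to 2.29 to 12.2 CPM (median 5.95). Lyz2, the macrophage lysozyme (chromosome 10, 117277331 to 117282321, minus strand), went from 96.8 to 143 CPM (median 122) to 9.73 to 80.7 CPM (median 26.3), or -2.10 ± 0.28. No library overlapped for Cd68 or Lyz2, but the spread within series 2 was wide. The Lyz2 difference was -3.22 in control, -1.19 with let-7d and -2.13 with let-7e. Laptm5 fell by 4.45 and Gpnmb fell by 2.10. Spp1, osteopontin, which cells other than macrophages also make, went from 250 to 313 CPM (median 265) to 474 to 1075 CPM (median 634). Cd9 rose by 0.54, or stood at 0.04 and was not called with length and GC offsets. Without Spp1 the other 25 markers summed to 620 to 875 CPM in series 1 and 119 to 374 CPM in series 2.

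Precursor and fibroblast genes rose in 14 of 23 cases, 11 at least 2-fold, and fell in 9, with a median of 0.81. Cd55, a complement regulator of early precursors, went from 8.87 to 11.2 CPM (median 9.42) to 25.3 to 34.7 CPM (median 28.4), a log2 fold change of 1.59 ± 0.073 (SE, edgeR adjusted p = 3.03e-12). Dpp4, a peptidase of the same early precursors, went from 1.67 to 3.54 CPM (median 2.50) to 6.50 to 11.2 CPM (median 10.3), and the proteoglycan Lum from 24.2 to 49.96 CPM (median 26.1) to 71.0 to 165 CPM (median 106). All 3 were higher in every library of series 2. Mfap5, a microfibril protein, rose by 1.36, Anxa3 by 1.35 and the stem cell antigen Ly6a by 1.35. Other members fell: Col15a1, a collagen of basement membranes, fell by 2.07, Dlk1, the preadipocyte factor, fell by 1.27 and the growth factor receptor Pdgfrb fell by 0.94.

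Matrix genes fell more often than they rose. Of 22 collagens 15 fell and 6 rose, with a median of -0.95. With length and GC offsets 12 fell and 9 rose, with a median of -0.31. Col6a3, a chain of the microfibrillar collagen VI, went from 1024 to 2203 CPM (median 1314) to 142 to 305 CPM (median 166), or -2.88 ± 0.071 (SE, edgeR adjusted p = 2.96e-15). Its partner chain Col6a2 fell by 2.77 and Col5a3 fell by 3.85, while Col11a1, a chain of fibrils in growing tissue, rose by 2.55. Col3a1 stood at -0.21, or 0.21 with the offsets for length and GC content. Of 31 other matrix genes 19 fell and 10 rose (median -0.33, or -0.17 with the offsets), with the laminin chains Lama4 (-1.52), Lamb1 (-1.56) and Lamc1 (-1.51) and the proteoglycan Fmod (-2.33) lower, and Postn (1.30) and Ogn (2.003) higher. Smooth muscle genes rose in 11 of 20 cases and fell in 6 (median 0.60). Rgs5, a signal regulator of pericytes, went from 3.20 to 5.61 CPM (median 4.00) to 18.8 to 30.0 CPM (median 22.2), and Tagln rose by 0.97, whereas the pericyte genes Cspg4 (-3.81) and Notch3 (-2.498) fell.

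Epithelial markers, Crisp1 of the epididymis among them, were higher in series 2 at low levels. Of 10 listed genes of the epididymal and germ epithelium 5 were measured, and all 5 rose at least 2-fold. The series overlapped in 2 of them, Cdh1 and Cldn7. The listed genes Lcn5, Lcn8, Defb1, Spag11b and Adam7 were not measured. Crisp1, a protein the epididymis secretes onto sperm, had 2 to 46 counts per library in series 1 and 224 to 378 in series 2. That is 0.139 to 1.89 CPM (median 0.972) against 7.54 to 14.6 CPM (median 8.97), with a log2 fold change of 3.04 ± 0.25 (SE, edgeR adjusted p = 6.36e-09). Epcam, an adhesion protein of epithelia, went from 0 to 0.361 CPM (median 0.0747) to 1.16 to 4.16 CPM (median 2.97), and the tight junction protein Cldn4 rose by 3.25. Summed, the 5 genes held 0.904 to 3.21 CPM in series 1 and 13.4 to 25.5 CPM in series 2. Of 14 mesothelium genes 5 rose and 8 fell. Keratins, which simple epithelia share, were 4 of the 5 that rose, with Krt18 going from 1.32 to 3.35 CPM (median 2.07) to 13.3 to 21.7 CPM (median 19.4) and Krt8 at 3.07. The other was Wt1, a transcription factor of mesothelium, at 0.25 and with no overlap between the series. Of the members that fell, Lrrn4 went from 15.3 to 17.2 CPM (median 16.1) to 2.05 to 3.02 CPM (median 2.40), Upk1b stood at -1.87 and Upk3b at -1.93. Mesothelin, Msln, was not called at 0.12. Of 6 mast cell genes 4 rose, 1 fell and 1 was not called, and the series overlapped in 3 of the 6. Tpsb2, a mast cell tryptase, went from 0.0696 to 0.464 CPM (median 0.223) to 0.982 to 2.46 CPM (median 1.22), while the receptor Kit, also on mast cells, fell by 1.14. Summed, with Kit the most abundant, the list held 12.7 to 18.98 CPM in series 1 and 8.63 to 16.2 CPM in series 2.

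Endothelial genes fell in 10 of 18 cases and rose in 6 (median -0.65). Cdh5, the cadherin of vessel walls, went from 102 to 124 CPM (median 110) to 42.1 to 65.6 CPM (median 43.3), a log2 fold change of -1.25 ± 0.088 (SE, edgeR adjusted p = 7.87e-10). Robo4 fell by 1.40, Ptprb fell by 1.20 and Eng fell by 0.57, but Emcn rose by 1.40, Tek by 0.89 and Erg by 0.77. Pecam1 was not called at 0.13. Summed, the list held 539 to 617 CPM in series 1 and 445 to 582 CPM in series 2, so the series overlapped. Few blood cell genes were left in the table: 1 of 10 for neutrophils, 4 of 18 for lymphocytes and 1 of 7 for red blood cells. The neutrophil gene, Mpo, was not called at 0.32, but was called at 0.57 with length and GC offsets. The share that macrophages, precursors or epithelial cells have in the fat cell, interferon or ribosome results was not tested.

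**Figure D4:**
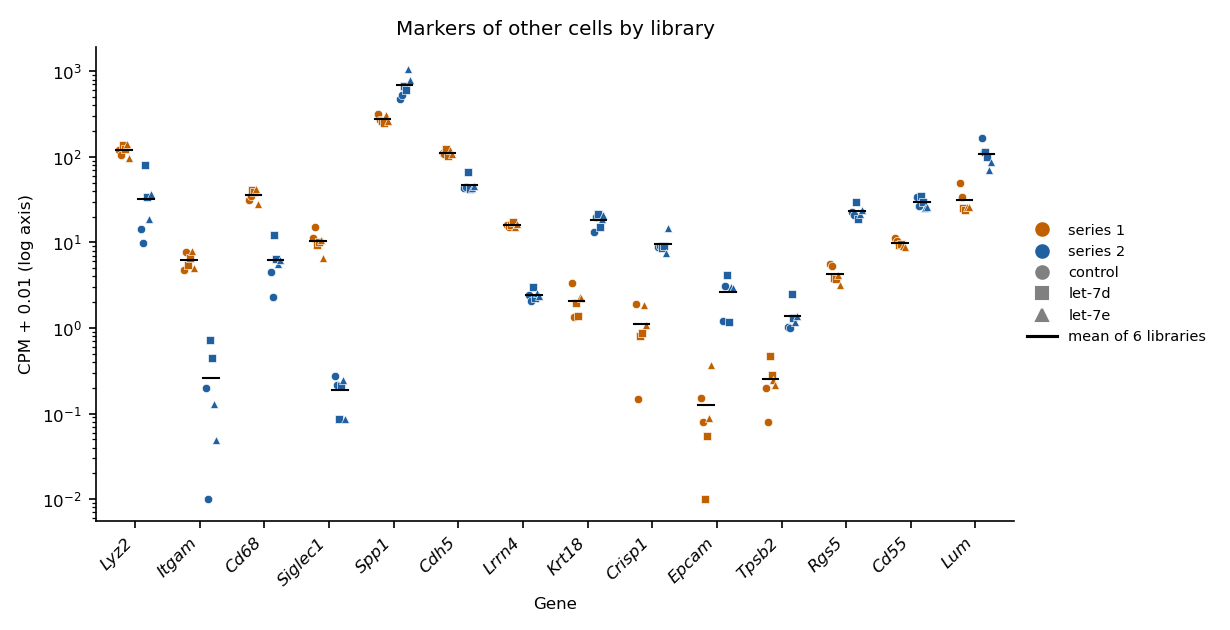
CPM plus 0.01 of 14 marker genes of other cells in every library, on a log axis, with colours and shapes as in the plot of fat cell genes. Itgam, Cd68, Siglec1, Cdh5 and Lrrn4 are lower in all 6 libraries of series 2, and Krt18, Crisp1, Epcam, Tpsb2, Rgs5, Cd55 and Lum are higher in all 6.

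Interferon response genes rose in 26 of 37 cases, 14 at least 2-fold, and fell in 3, with a median of 0.77. Their median was 1.20 in control, 0.46 with let-7d and 0.75 with let-7e. Interferons are alarm cytokines whose receptors switch on antiviral genes. Isg15, a ubiquitin-like modifier, went from 55.6 to 110 CPM (median 90.8) to 276 to 416 CPM (median 301), a log2 fold change of 1.89 ± 0.13 (SE, edgeR adjusted p = 5.96e-10). Ifitm3, which blocks virus entry, went from 303 to 449 CPM (median 380) to 956 to 1361 CPM (median 1112), or 1.57 ± 0.081. Neither gene overlapped between the series. For Isg15 the difference was 2.25 in control, 1.68 with let-7d and 1.77 with let-7e. Irf9, the DNA-binding part of the interferon-activated complex, rose by 0.89 and Ifi35 by 0.93.

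The interferon-activated complex binds the element GAAANNGAAA, so the promoters were searched for it, from 250 bases before to 50 after the annotated start in RefSeq (GRCm38.p6), on both strands. Of the 37 measured list members 27 matched an entry by symbol and 17 of them hold the element, against 3.44% of all 32851 windows of that length and 3.84% of 11237 tested genes with an entry. Members called higher hold it in 14 of 22 cases, the member called lower in 1 of 1 and members not called in 2 of 4. The matches of 4 genes that rose are shown 5′ to 3′ on the gene's strand with the element, or its reverse complement, in capitals.
Isg15, chr4:156200871-156200900, minus strand: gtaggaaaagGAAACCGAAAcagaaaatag
Ifit1, chr19:34640775-34640804, plus strand: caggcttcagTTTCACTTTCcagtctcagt
Bst2, chr8:71537577-71537606, minus strand: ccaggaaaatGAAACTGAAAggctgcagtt
Gbp2, chr3:142620594-142620623, plus strand: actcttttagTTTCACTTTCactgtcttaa
In Isg15 the element lies at -72 to -63 from the start, and further matches overlap it there, as in Bst2. Ifit1, which blocks foreign messages, rose by 1.68, Bst2, which tethers virus to the cell, by 1.23 and the GTPase Gbp2 by 1.02. A match describes the letters only.

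Other immune genes were mixed. B2m, the light chain of the class I molecules that present antigen, went from 1053 to 1923 CPM (median 1688) to 2395 to 3729 CPM (median 3207), or 1.07 ± 0.081 (SE). With length and GC offsets it stood at 0.12 and was no longer called. Within the same list of 14 genes 5 rose and 6 fell, the peptide loading genes Tapbp (-1.33) and Tap2 (-0.96) and their regulator Nlrc5 (-1.85) among them. Of 18 chemokines 10 rose and 7 fell (median 0.45, or -0.23 with length and GC offsets). Ccl5, which draws T cells, went from 0.974 to 3.56 CPM (median 2.56) to 21.2 to 90.2 CPM (median 29.5). Ccl8 rose by 2.53 and Cxcl12 by 0.61, and Cx3cl1 fell by 1.40. Of 25 cytokine and acute-phase genes 13 rose and 10 fell. Il33, an alarm cytokine of stromal cells, went from 8.83 to 13.4 CPM (median 12.002) to 45.1 to 86.9 CPM (median 64.3), Ptgs2, the inducible cyclooxygenase, rose by 2.02, and complement C4b fell by 1.94. Of 17 matrix proteases and inhibitors 8 rose and 7 fell (median 0.08, or 0.45 with length and GC offsets). The proteases Mmp3 (1.46) and Adamts5 (0.84) and the inhibitor Timp3 (1.11) rose, and the largest falls were those of Mmp12 (-3.16), an elastase of macrophages, and the collagenase Mmp13 (-2.95).

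Stress response lists differed among themselves. Of 23 genes of the ATF4 response and serine synthesis 17 rose, 10 at least 2-fold, and 2 fell, with a median of 0.61. ATF4 is a factor made when cells lack amino acids or fold proteins poorly. Ddit3, the factor CHOP, went from 34.6 to 47.1 CPM (median 43.4) to 228 to 314 CPM (median 272), a log2 fold change of 2.71 ± 0.066 (SE, edgeR adjusted p = 2.69e-15). Nupr1, a small nuclear stress protein, went from 53.4 to 64.3 CPM (median 59.3) to 295 to 383 CPM (median 326), or 2.46 ± 0.058. Both were higher in every library of series 2. Atf4 itself rose by 1.07, the serine enzyme Psph by 1.41 and asparagine synthetase, Asns, by 1.27. Atf3 fell by 1.16. Chaperones of the endoplasmic reticulum rose in 13 of 19 cases and fell in 5 (median 0.34), all within 2-fold, or in 9 and 6 (median 0.06) with length and GC offsets, with Pdia3 at 0.74, Pdia6 at 0.73, Dnajb9 at -0.73 and Edem1 at -0.76.

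The element that ATF4 binds with its partners, TGATGNAA, was found on either strand in the promoters of 8 of 20 list members with an entry, against 3.97% of all windows and 2.91% of tested genes with one. Of members called higher 6 of 15 hold it, of those called lower 1 of 2 and of those not called 1 of 3. The matches of 3 genes that rose are shown as before, with the element or its reverse complement in capitals.
Nupr1, chr7:126625563-126625590, minus strand: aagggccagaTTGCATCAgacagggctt
Asns, chr6:7693215-7693242, minus strand: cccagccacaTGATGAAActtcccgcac
Chac1, chr2:119351039-119351066, plus strand: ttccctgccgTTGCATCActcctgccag
Chac1, which degrades glutathione, rose by 0.88. In falling lists, the sequence ATTGGC, which NF-Y binds, was in 12 of 16 cholesterol promoters against 21.9% of tested genes. It was in 10 of 14 among those that fell and in 2 of 2 among those that rose. The palindrome CACGTG, which clock factors bind, was in 5 of 14 clock promoters against 11.5%. The sterol element TCACNCCAC was in 1 of 16 cholesterol promoters and 1 of 16 of fatty acid synthesis, against 1.42%. In all, 10 elements were searched, and those with stretches shown were picked after the shares were seen. The other 5 stood closer to the background or had few matches. TTGCNNAA, which C/EBP factors bind, was in 3 of 21 promoters of mature fat cell genes against 10.1%, and AGGTCA, any 1 base and AGG, bound by the PPAR factors, in 2 of 21 against 0.596% and in 0 of 21 of fatty acid oxidation. CTTTTC, part of the pyrimidine tract at the start of ribosomal protein messages, was in 16 of 57 against 22.6%. Matches were counted on either strand and anywhere in the window, so this share cannot describe the tract at the message start. The cAMP element TGACGTCA was in 0 of 20 promoters of the ATF4 list against 3.41%, and CATGNNNNNNCATG, in sites of p53, in 1 of 16 against 0.365%. An element was counted whether or not it overlapped another.

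Targets of p53, the factor of the DNA damage response, rose in 14 of 20 cases and fell in 3 (median 0.65). Bax, which opens mitochondria in cell death, went from 56.6 to 69.3 CPM (median 59.6) to 146 to 162 CPM (median 153), a log2 fold change of 1.33 ± 0.047 (SE, edgeR adjusted p = 1.31e-13). Pmaip1, another inducer of death, went from 4.94 to 5.99 CPM (median 5.82) to 31.4 to 46.4 CPM (median 34.9). Ccng1 rose by 1.52 and Eda2r by 1.68, but Zmat3 fell by 0.73. Of 35 cell division genes measured 9 rose and 15 fell (median -0.02), or 6 and 21 (median -0.21) with length and GC offsets, with Foxm1 at -1.24, Aurkb at -1.10, Mcm3 at -0.80 and Rrm1 at 0.62. Of 17 hypoxia response genes 6 rose and 6 fell (median 0.00). Their median was -0.33 in control, 0.11 with let-7d and 0.33 with let-7e. Of 23 antioxidant genes 12 rose and 9 fell, or 9 and 10 with length and GC offsets. Catalase, Cat (-1.74), and Sod2 (-1.42) fell, and Gpx1 and Gstm2 rose by 1.01 and 1.02. Early response genes, which answer growth signals within minutes, fell in 12 of 18 cases, with Egr1 at -1.60, Jun at -1.01 and Egr2 at -1.05, and Ier3 among the 2 that rose at 0.65.

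Growth factor genes moved both ways. Of 18 genes of the IGF and imprinted list 6 rose and 10 fell. Among the binding proteins Igfbp2 (1.46) and Igfbp6 (1.43) rose and Igfbp5 (-1.92) fell, and the receptor Igf1r (-0.97) fell. In the TGF-beta list 12 of 19 genes fell and 6 rose, with the activin receptor Acvr1c at -3.31, Tgfbi at -2.82, Ltbp2 at -1.40 and Tgfbr3 at -1.16. Lysosome genes rose in 12 and fell in 14 of 29 cases (median -0.07, or 0.01 when libraries were scaled by totals only). Ctsk rose by 1.62 and Lamp2 by 1.13, and Psap (-1.27) and Npc1 (-1.20) fell.

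The series were also compared within each treatment. Between 2 libraries and 2, edgeR called 5550 genes higher and 5326 lower in control (35.2% and 33.8%), 5517 and 5522 with let-7d (35.0% and 35.1%), and 5683 and 5472 with let-7e (36.1% and 34.7%). Of 12864 genes called over all libraries, 12695 (98.7%) had the same sign in all 3 treatments, a share raised by choosing them on these same libraries. Over all 15754 genes it was 86.5%. The 3 estimates share 1 estimate of the spread but no library. A test of whether the series difference itself changed with treatment called 14 genes (0.0889%), and 1605 had an unadjusted p under 0.05. The number was 0 without let-7d replicate 2 and 138 without control replicate 1. The matrix protein gene Cilp, chosen with the other 13 after its values were seen, gave -0.17 ± 0.10 in control, 1.06 ± 0.11 with let-7d and 0.02 ± 0.11 with let-7e (SE, edgeR adjusted p of the interaction 0.0154). Cebpb stood at -1.09 in control, -0.33 with let-7d and -0.51 with let-7e. Aldh3b2, an aldehyde dehydrogenase of lipids, stood at -3.11, -4.42 and -4.35, and Prlr, the prolactin receptor, at -2.28, -3.75 and -3.37 in the same order.

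**Figure D5:**
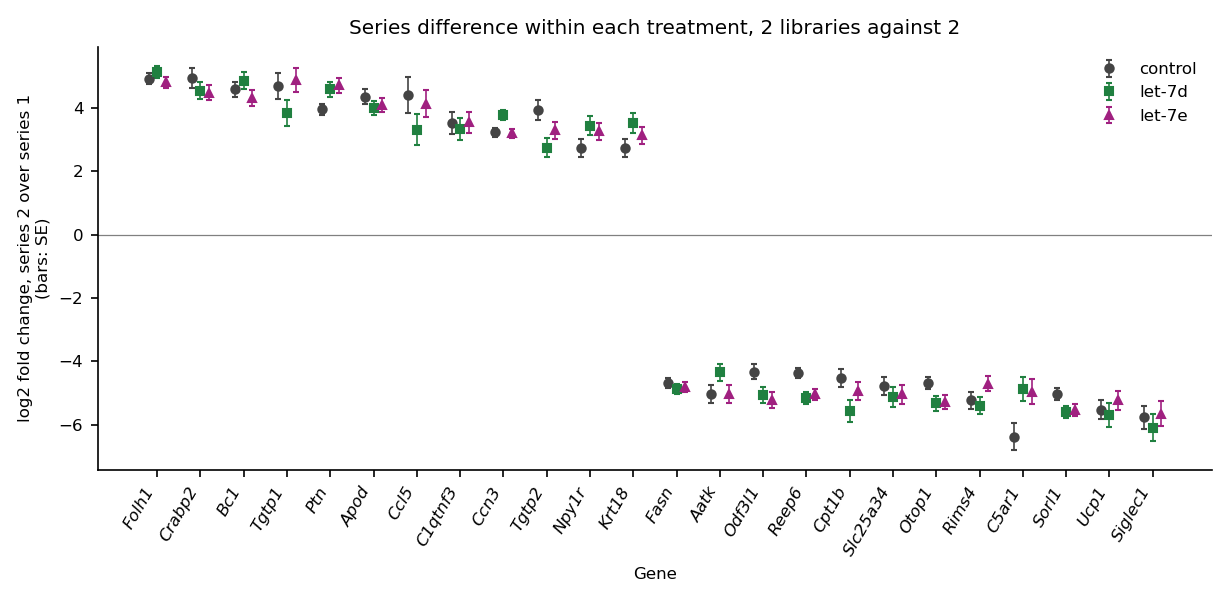
Log2 fold change of series 2 over series 1, with SE, within control, let-7d and let-7e for the 12 largest rises and the 12 largest falls. All 3 estimates lie on the same side of 0 for each of the 24 genes, from Folh1 at 4.91, 5.13 and 4.80 to Siglec1 at -5.76, -6.09 and -5.65.

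The sex given in the labels was checked on the Y chromosome. Ddx3y had 49.2 to 108 CPM in series 1 (median 105) and 118 to 139 CPM in series 2 (median 137), and Eif2s3y, Kdm5d and Uty were counted in every library as well. The Ddx3y difference of 0.51 ± 0.11 (SE, edgeR adjusted p = 0.000357) became -0.02 with the offsets for length and GC content.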

How the data were processed

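For total RNA of 12 libraries, the authors deposited raw counts, whole numbers for each Ensembl gene. The submitters' processing notes name STAR and GRCm38.p6. Which counter was used, whether it used strand and what it did with multiply mapped reads is not given in the sources used here. Overlapping and antisense genes therefore cannot be told apart. Per the name of the deposited file, genes of low CPM had been removed by the authors, and the lowest maximum CPM left is 0.456. A second deposited table was not used, because the gene lengths its values imply differ between libraries by a median ratio of 69.4. The design text gives n = 6 per treatment where 4 libraries are listed.

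All 15754 genes were tested (edgeR 4.0.16, limma 3.58.1, R 4.3.3): TMM factors, quasi-likelihood fit of treatment and series over 12 libraries, two-sided, Benjamini-Hochberg over all genes. On simulated counts for this comparison (15754 genes), 50 of 50 genes changed 4-fold were called in each direction. Of genes changed 2-fold, 46 of 50 were called upward and 45 of 50 downward, and 10 of 15554 unchanged genes were called. Nearly all genes were left unchanged there, and libraries were drawn independently. The simulation therefore cannot show error rates where most genes differ or where a series is 1 culture. Within a treatment and series, pairs of libraries differed beyond counting noise (chi-square per degree of freedom 2.29 to 9.77), so all 12 were counted. Symbols of GENCODE vM21 matched 15736 identifiers. Exon length is that of a gene's merged exons, and GC content is that of its longest annotated transcript.

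The gene lists and the members were chosen with earlier results of these data known. Named genes are, among called genes with mean log2 CPM of at least 2 and no overlap between series, the 12 largest rises and 12 largest falls, leaving out predicted genes, the 4 members of each list with the smallest p, and Scd1, Adipoq, Lyz2, Eef1a1, Pparg, Cebpa, Nnt, Ucp1 and Y-linked genes. Part of these are given, and some genes are not reported here. Others in the text, such as Cebpb, Fabp4, Cd36, Hp, Insr, Spp1, Dpp4, Lum, Asns, Wt1, Msln, Mmp12, Mmp13 and the exceptions within lists, were chosen after their values were seen. Alternatives were other scalings, DESeq2 1.42.0, limma-voom, a CPM filter, no treatment term, a replicate block, controls only, summed libraries and each library left out, and, added after seeing the data, offsets for length and GC content.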

Additional observations from a re-analysis of the deposited data

Results flagged for a closer look

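Among 132 groups of 6 values given by library, 17 held a sample that stood apart from the other 5 by the gap to its nearest neighbour, where chance alone gives about 1 in 20. Control replicate 1 of series 1 was the highest there for Eef1a1 (4697 CPM), Lum (50 CPM), Bax (69.3 CPM), summed ribosomal protein genes (20000 CPM) and summed smooth muscle genes (9095 CPM). Control replicate 2 of series 1 was the highest for Cs (1065 CPM), summed citric acid cycle genes (9453 CPM) and summed fatty acid oxidation genes (8712 CPM), and the lowest for Ddx3y (49.2 CPM). The let-7d replicate 3 of series 2 was the highest for Cdh5 (65.6 CPM), Tpsb2 (2.46 CPM) and summed endothelial genes (582 CPM), and let-7d replicate 2 of series 1 was the lowest for summed endothelial genes (539 CPM). Single samples were also highest in their series for Ccl5 (let-7e replicate 3, 90.2 CPM), Crisp1 (let-7e replicate 4, 14.6 CPM), Slc2a4 (control replicate 3, 3.80 CPM) and Nnt (let-7d replicate 1, 1.13 CPM).

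The series difference changed with treatment in named genes (interaction in edgeR). The adjusted p was 0.0154 for Cilp, Npnt and Aldh3b2, 0.0307 for Prlr and Cebpb, 0.0411 for Bche, Itih5, Avpr1a and Anxa8, 0.044 for Tnfsf15 and 0.0496 for Aldh1a7, Slc6a13 and Nucks1. The 14th gene called is a predicted gene. For Slc6a13 the log2 fold change was -1.62 in control, -3.48 with let-7d and -3.33 with let-7e, for Anxa8 1.72, 2.68 and 2.87, and for Tnfsf15 2.08, 1.07 and 1.15. Each rests on 2 libraries against 2.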

How the results depend on the processing

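Counts of genes called between the series stayed within 1.5 times of those reported under the 23 alternatives, except for rises of at least 2-fold, which numbered 1149 rather than 1786 with length and GC offsets. Leaving out 1 library gave 6347 to 6510 genes higher and 6164 to 6292 lower, 1732 to 1853 and 2443 to 2535 at least 2-fold. Within treatments it gave 4860 to 5566 higher and 4790 to 5337 lower in control, 4771 to 5677 and 4895 to 5568 with let-7d, and 4915 to 5740 and 4774 to 5608 with let-7e. No gene called by both fits changed sign, except 484 with length and GC offsets. Genes whose series difference changed with treatment numbered 14, but 180 with DESeq2, 3 with limma-voom, 6 with the CPM filter and 5 with length and GC offsets. Leaving out 1 library gave 0 to 138 of them: 138, 69 and 49 without control replicate 1, let-7d replicate 4 and let-7e replicate 4, and from 0 to 9 without let-7d replicate 2 (0), control replicate 2 (3), let-7e replicate 1 or 2 (3), control replicate 3 (5), let-7d replicate 3 (6) or let-7d replicate 1 (9). The cause was not tested.

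Of 284 named genes, 262 kept their direction and side of the threshold in every alternative. With length and GC offsets Col3a1 turned to 0.21, Eif2s3y to -0.17, Ddx3y to -0.0154 and Eif3b to 0.039, and the list medians of chemokines to -0.23, glycolysis to 0.12 and complex I to -0.32. Library totals alone turned the lysosome median to 0.0054. In control libraries alone Klf5, Hilpda, Mogat2, Avpr1a, Elovl5, Nnt, mt-Nd4 and mt-Nd5 were no longer called. Same-numbered libraries correlated at -0.07 to 0.19 between treatments. With 2 libraries per treatment and series, this cannot tell whether the numbers pair them. With a replicate block 6545 genes were higher and 6289 lower. Siglec1, Ucp1 and Epcam had at most 11 counts per library in 1 series, which limits their fold changes.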
